A study of Homo sapiens with 9 samples.

Results

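The transcripts described here are 48 genes of the G2/M transition and of mitosis: mitotic cyclins and CDK1, mitotic kinases, the spindle checkpoint and anaphase-promoting complex, kinesins, kinetochore and chromosomal passenger genes, spindle-associated proteins, cytokinesis genes, and TOP2A, MKI67 and FOXM1. They were listed by symbol, with earlier results of these data known. All 48 were found among the 24462 gene symbols counted, each with reads in every library. U-373MG is an established human glioblastoma and astrocytoma cell line, sampled as 1 line with no other line beside it. There were 3 untreated control libraries, 3 libraries of cells given 200 nM of NnK-1 for 48 h and 3 of cells given 200 nM of CBRV1-10493 for 48 h. Both compounds are synthetic peptides derived from jellyfish and described as ShK-like, after a sea anemone toxin known as a blocker of voltage-gated potassium channels. The controls are labelled only as untreated, so a vehicle and a culture time are not recorded for them here, and the same 3 control libraries stand behind both peptides.

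A cell that enters mitosis depends on CDK1 bound to cyclin B, which kinases such as PLK1 and AURKA help to switch on. The spindle checkpoint then holds back the anaphase-promoting complex until every chromosome is attached, after which cyclin B and securin (PTTG1) are destroyed and the cell divides. Many of these genes are transcribed together late in the cell cycle by complexes that hold MuvB proteins with B-MYB or FOXM1, which act through an element called CHR, and by NF-Y, which binds CCAAT boxes. Their transcripts are therefore widely used as a measure of how much a tumour cell population is cycling.

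The promoters of these genes are shown for the members whose levels recur below, because these motifs are a sequence feature that many of the 48 share and that the list did not use. RefSeq promoter windows on GRCh38.p14, from 250 bases before to 50 bases after the listed start, were matched by symbol for 41 of the 48 members. AURKA, BUB3, TTK, UBE2C, BIRC5, TPX2 and FOXM1 had no entry in the table. The motifs CCAAT and TTTGAA (the core of the CHR element) were searched on both strands. CCAAT stood in 32 of the 41 windows (78.0%), against 35.7% of all 27305 promoters in the table and 37.1% of the 10032 promoters of genes tested here. TTTGAA stood in 29 of 41 (70.7%), against 15.4% of all promoters and 9.77% of those of tested genes. Both motifs stood in 25 of 41 (61.0%), against 6.08% and 4.23%. A CCAAT box was present at least 2 times in 20 of 41 (48.8%), against 11.3% and 13.9%. The 120 bases just before the start of 6 members are given 5′ to 3′ on the gene's strand, with every CCAAT and TTTGAA, or its reverse complement, in capitals.

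CKS1B (GRCh38.p14 chr1:154974561-154974680, + strand): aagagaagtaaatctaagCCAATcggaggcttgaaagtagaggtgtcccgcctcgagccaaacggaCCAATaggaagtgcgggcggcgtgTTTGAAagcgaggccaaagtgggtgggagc
CCNB1 (GRCh38.p14 chr5:69167030-69167149, + strand): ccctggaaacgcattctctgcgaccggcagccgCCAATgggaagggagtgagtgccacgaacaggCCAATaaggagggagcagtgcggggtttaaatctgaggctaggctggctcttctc
CCNB2 (GRCh38.p14 chr15:59105026-59105145, + strand): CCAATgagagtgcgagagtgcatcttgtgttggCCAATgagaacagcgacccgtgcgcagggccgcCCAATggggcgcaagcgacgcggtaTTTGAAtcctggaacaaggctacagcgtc
PLK1 (GRCh38.p14 chr16:23678769-23678888, + strand): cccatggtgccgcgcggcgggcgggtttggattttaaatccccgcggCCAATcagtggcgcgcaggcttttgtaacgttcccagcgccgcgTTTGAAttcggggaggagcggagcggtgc
KIF11 (GRCh38.p14 chr10:92593010-92593129, + strand): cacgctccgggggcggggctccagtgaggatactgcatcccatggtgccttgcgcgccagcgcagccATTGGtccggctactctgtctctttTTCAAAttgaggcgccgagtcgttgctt
HMMR (GRCh38.p14 chr5:163460512-163460631, + strand): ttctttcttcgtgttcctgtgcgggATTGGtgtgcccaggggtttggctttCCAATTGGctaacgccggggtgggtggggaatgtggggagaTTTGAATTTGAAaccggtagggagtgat

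CKS1B, CCNB2, PLK1, KIF11 and HMMR each carry 1 or more CCAAT boxes with a TTTGAA downstream in these stretches, in KIF11 both as the reverse complement. In CCNB1 the CCAAT boxes are present and TTTGAA is not. The windows of KIF2C, TACC3, CDC25B, CDC25C and CENPE held neither motif. A match is a description of these letters, and none of the data bear on whether a factor binds there. Genome coordinates are given for these RefSeq windows alone, since the counts were made on hg19.

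Total counts per library ranged from 11203094 to 13491075, and 13676 genes, among them all 48 members, had enough reads to be tested. Levels are given as CPM, the count of a gene per 1000000 counts of its library. QuantSeq counts 3′ ends, so CPM values are compared between libraries, and between genes they served only to choose which member of each role is given in every library. The lowest count of any member in any library was 155 reads (CENPA in NnK-1 replicate 2). Of 12 astrocyte and glioma markers 11 had reads, with GFAP at 19.7 to 28.98 CPM and reads of VIM, NES, CD44, SOX2 and SOX9 in every library, while AQP4 and CHI3L1 were near 0 and ALDH1L1 had no read. The endothelial markers summed to at most 2.31 CPM and the immune markers to at most 8.82 CPM, with CD3E, CLDN5 and TEK at 0. The neuron list, which includes TUBB3, MAP2 and NEFL, summed to 447 to 594 CPM. Its members RBFOX3, SNAP25, STMN2 and DCX reached at most 1.32 CPM in any library. The fibroblast list, which includes PDGFRA and THY1, summed to 902 to 1088 CPM, with DCN and LUM at most 0.41 CPM. In the labels the treated libraries are biological replicates, without a word on separate cultures, and p-values therefore rest on a spread between samples that may be technical.

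The 48 members together took 7140, 7156 and 7278 CPM in the control libraries. They took 7588, 7012 and 7370 CPM with NnK-1, and 6781, 6876 and 6942 CPM with CBRV1-10493. All 3 CBRV1-10493 libraries therefore lay below the other 6, while the NnK-1 libraries held both the highest of the 9 and a value below every control. The group mean was 7192 ± 75.7 CPM for the controls, 7323 ± 290.5 for NnK-1 and 6867 ± 80.8 for CBRV1-10493 (SD, n = 3). The difference of means was 132 CPM for NnK-1 against control, -325 CPM for CBRV1-10493 against control and -457 CPM for CBRV1-10493 against NnK-1. With CPM scaled by TMM, edgeR's correction for composition, the CBRV1-10493 libraries stood at 6840, 6871 and 6900, again below the other 6, which ran from 7040 to 7504. TOP2A has the most counts of any member in this sum. Without it the CBRV1-10493 libraries held 5055, 5127 and 5049 CPM, the controls 5323 to 5371, and NnK-1 5836, 5137 and 5313. In bulk RNA, fewer cells in mitosis and less RNA of these genes per cell cannot be told apart.

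None of the 48 members passed an adjusted p of 0.05 in any of the 3 comparisons with edgeR's quasi-likelihood test and Benjamini-Hochberg adjustment over all genes tested. The share of all tested genes that passed was 0% in NnK-1 against control, 0% in CBRV1-10493 against control and 0% between the peptides. DESeq2's test also called no member. The smallest adjusted p of a member by edgeR was 0.62 for NnK-1, 1 for CBRV1-10493 and 0.994 between the peptides. The 95% interval of a member's log2 fold change reached, at the median, 0.255 to each side in each peptide's comparison with control. Fold changes below are log2 differences between groups from that fit, with their 95% intervals and the adjusted p of edgeR's quasi-likelihood test.

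**Figure D1:**
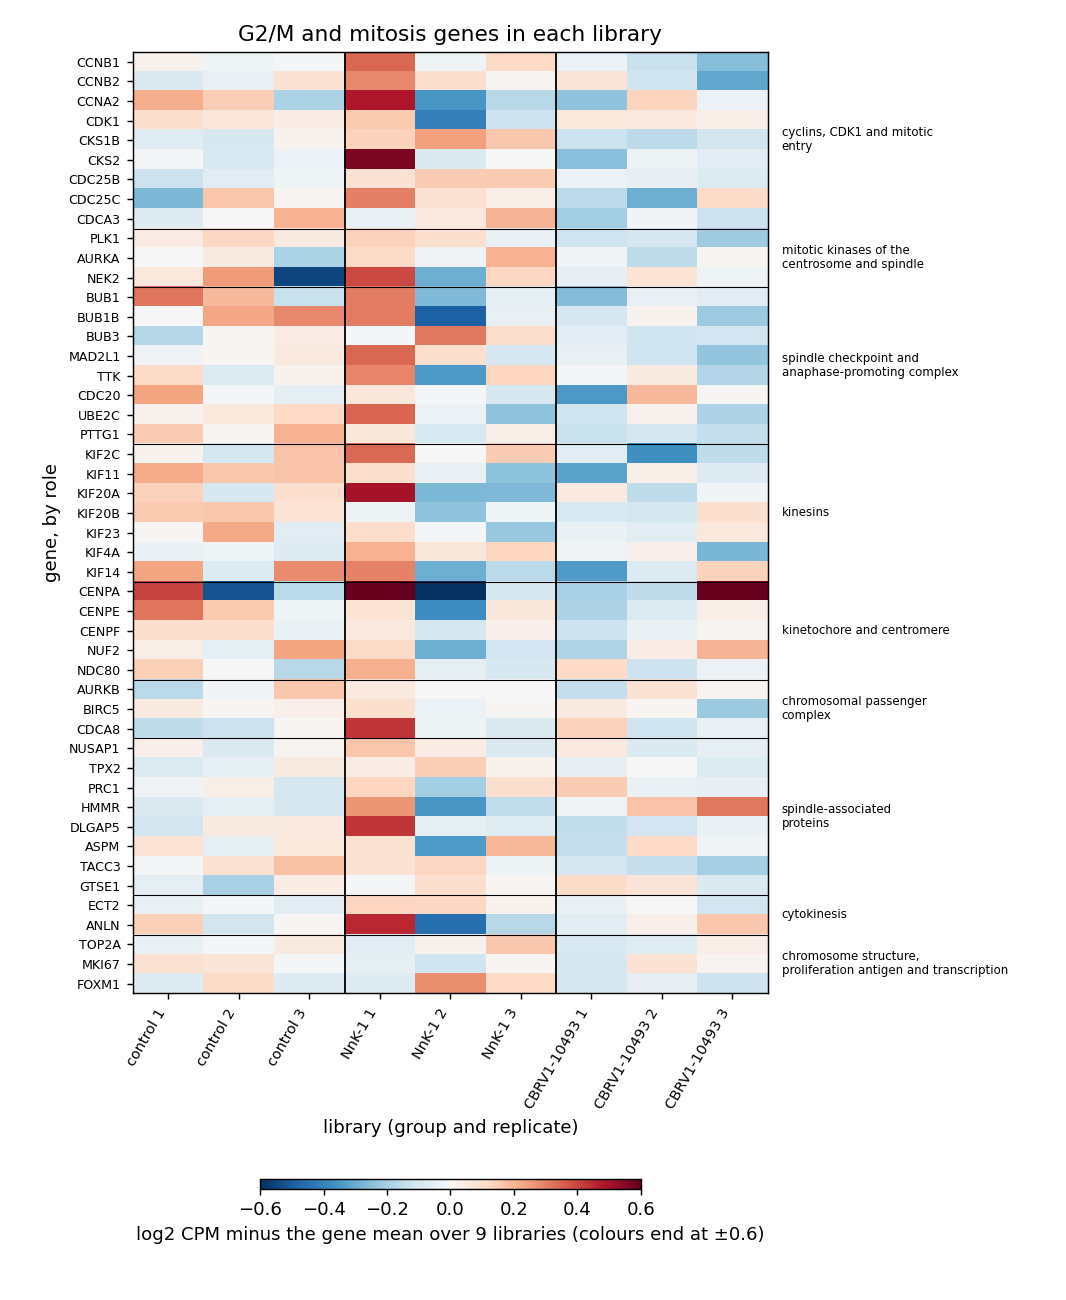
Each row is 1 of the 48 genes, grouped by role, and each column 1 of the 9 libraries. The colour is the log2 CPM minus the gene's mean over the 9 libraries, with the colour scale ending at 0.6 to each side. NnK-1 replicate 1 holds the most red cells, NnK-1 replicate 2 many of the dark blue ones, and the 3 CBRV1-10493 columns are mostly pale blue.

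One NnK-1 library stood apart in these genes. NnK-1 replicate 1 was the highest of the 9 libraries for 24 of the 48 members (50%) and the lowest for none, whereas it was the highest for 14.9% of all 10618 genes that averaged 5 CPM or more. NnK-1 replicate 2, which has the fewest total counts (11203094) and the fewest genes with a read (15305), was the lowest for 15 members (31.2%), against 21.4% of all such genes. The median deviation of the members from their own means over the libraries was 0.14 in NnK-1 replicate 1, -0.03 in NnK-1 replicate 2 and 0.00 in NnK-1 replicate 3. It lay at 0.02, 0.00 and 0.02 in the controls and at -0.09, -0.05 and -0.05 in the CBRV1-10493 libraries. The summed astrocyte and glioma markers were also highest in NnK-1 replicate 1 (10940 CPM) and lowest in NnK-1 replicate 2 (7422 CPM), against 9008 to 10649 CPM in the other 7 libraries. That order came from VIM, the intermediate filament vimentin, at 7267 and 3670 CPM in those libraries. Without VIM the list summed to 3673.5 CPM in NnK-1 replicate 1, the lowest of the 9, and 3752 CPM in NnK-1 replicate 2, against 3780 to 3925 CPM in the others. The part of VIM, or of depth, in the members' levels was not tested.

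The members that set NnK-1 replicate 1 apart came from several roles. CKS2, a small subunit that binds CDK1, stood at 76.0 CPM there and at 43.2 to 51.5 CPM in the other 8 libraries. CCNA2, the cyclin of S phase and early mitosis, stood at 67.5 CPM there, at 37.8 CPM in NnK-1 replicate 2 and at 40.9 to 56.2 CPM elsewhere. KIF20A, a kinesin of the central spindle, stood at 107 CPM in NnK-1 replicate 1, and at 62.6 and 62.8 CPM in NnK-1 replicates 2 and 3. CDCA8, the borealin subunit of the chromosomal passenger complex, stood at 124 CPM there and at 83.1 to 102 CPM in the other libraries. ANLN, the anillin scaffold of the cleavage furrow, had 167, 89.3 and 109 CPM in the NnK-1 libraries, with 135, 113 and 123 in control cells and 117, 125 and 137 with CBRV1-10493. The extremes of ANLN over all 9 libraries thus belong to 2 replicates of the same treatment. For KIF20A and ANLN the SD over the NnK-1 libraries was 32.8% and 33.3% of the mean. The annotation places a gene on the other strand across the 3′ end of 7 members, namely EXOSC9 at CCNA2, GNB3 at CDCA3, ERN2 at PLK1, CDC23 at KIF20A, PRC1-AS1 at PRC1, HMMR-AS1 at HMMR and ITFG2 at FOXM1. The strand setting of the counting is not stated, so reads of these members cannot be told from those of their partners.

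**Figure D2:**
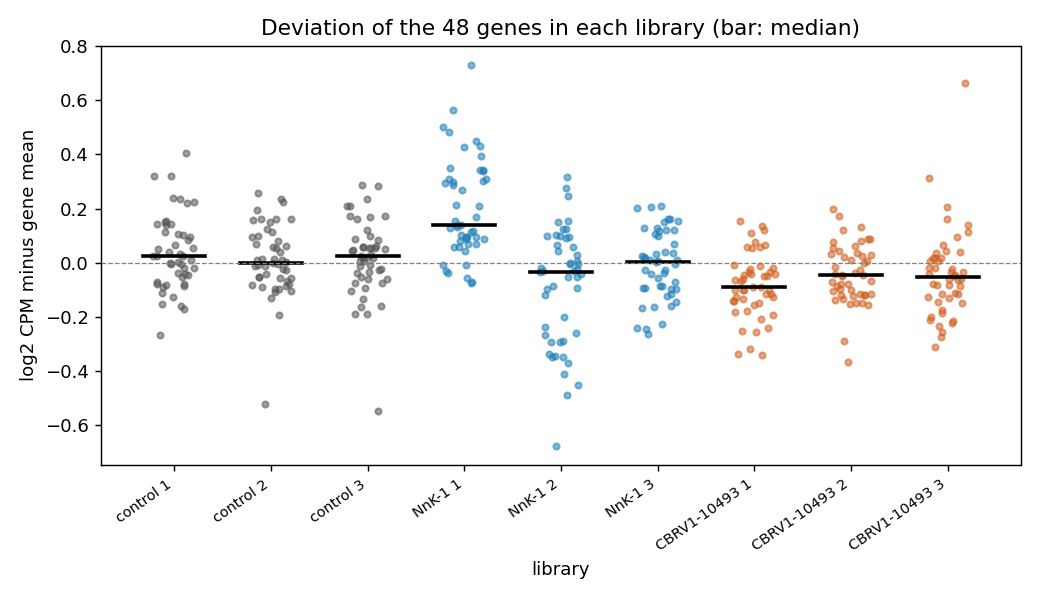
Each point is 1 of the 48 genes in 1 library, as log2 CPM minus the gene's mean over the 9 libraries, and the black bar is the library's median. The median is 0.14 in NnK-1 replicate 1 and lies between -0.09 and 0.02 in the other 8 libraries.

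In NnK-1 against control, 32 members lay above 0 and 16 below, with a median log2 fold change of 0.06, against 0.00 over all genes tested. Scaled by library totals alone the split was 27 to 21. Without NnK-1 replicate 1 it was 22 to 26, and the median was -0.01. Below an unadjusted p of 0.05 stood 2 members in the higher direction (CKS1B and CDC25B) and 0 in the lower, beside 3.76% and 3.57% of all genes. The 2 became 0 without control replicate 2 and 1 without control replicate 1, beside 2.94% and 2.83% of all genes. Without NnK-1 replicate 1 there were 3 higher and 4 lower, beside 5.78% and 5.91%. The groups did not overlap for 4 members in the higher direction (CKS1B, CDC25B, KIF4A and ECT2) and 2 in the lower (KIF20B and KIF11), beside 5.08% and 7.92% of all genes. These shares of 48 are close to the background for all genes. On TMM-scaled CPM the 4 higher members became 5, with CCNB1 added, and the lower remained 2. Over all 13676 genes tested these counts were 830 and 929.

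In CBRV1-10493 against control, 13 members lay above 0 and 35 below, with a median log2 fold change of -0.06 against 0.00 over all genes. Without NnK-1 replicate 1, which enters this comparison only through the shared scaling and spread, the split was 12 to 36. At an unadjusted p under 0.05 there were 0 members higher and 3 lower (PTTG1, TACC3 and KIF11), beside 1.34% and 1.55% of all genes. The 3 became 0 without control replicate 3 or CBRV1-10493 replicate 3, beside 1.6% and 2.21% of all genes. They became 1 without control replicate 2, beside 1.15%. The groups did not overlap for 1 member in the higher direction (HMMR) and 8 in the lower (those 3 with PLK1, UBE2C, CCNB1, MAD2L1 and CKS1B), beside 3.91% and 4.96% of all genes. On TMM-scaled CPM the 8 became 4 (PTTG1, TACC3, KIF11 and PLK1), beside 4.43% of all genes. CCNB1, CKS1B, PLK1, PTTG1 and TACC3 were lower in every CBRV1-10493 library than in all 6 other libraries, which held for 0.841% of all genes. On TMM-scaled CPM this held for 3 of them (PLK1, PTTG1 and TACC3). The 0.841% is for library-total CPM, and the share over all genes was not computed on the TMM scale.

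Between the peptides, 8 members lay above 0 and 40 below in CBRV1-10493 against NnK-1, with a median log2 fold change of -0.10 against 0.00 over all genes. At an unadjusted p under 0.05 there were 0 members higher and 10 lower (CKS1B, KIF2C, CCNB1, BUB3, TACC3, CCNB2, KIF4A, CDC25B, CKS2 and PLK1), beside 1.96% and 2.35% of all genes. The groups did not overlap for 0 members in the higher direction and 11 in the lower (all of these but CCNB2 and CKS2, with PTTG1, ECT2 and TPX2), beside 4.71% and 4.17% of all genes. On TMM-scaled CPM the 11 became 12, with AURKA added, beside 600 of all 13676 genes tested. Without NnK-1 replicate 1 the split was 22 above to 26 below and the median was -0.03. In that fit 3 members were higher and 6 lower at an unadjusted p under 0.05, beside 4.68% and 4.35% of all genes. The lopsided split between the peptides thus rested on NnK-1 replicate 1. The median also moved, to -0.17 without NnK-1 replicate 2 and to -0.15 without CBRV1-10493 replicate 2. The 10 lower members became 4 without CBRV1-10493 replicate 2 or 3, beside 1.83% and 1.76% of all genes. They became 6 without control replicate 2 or 3 or NnK-1 replicate 2, beside 2.14%, 2.22% and 1.54%.

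**Figure D3:**
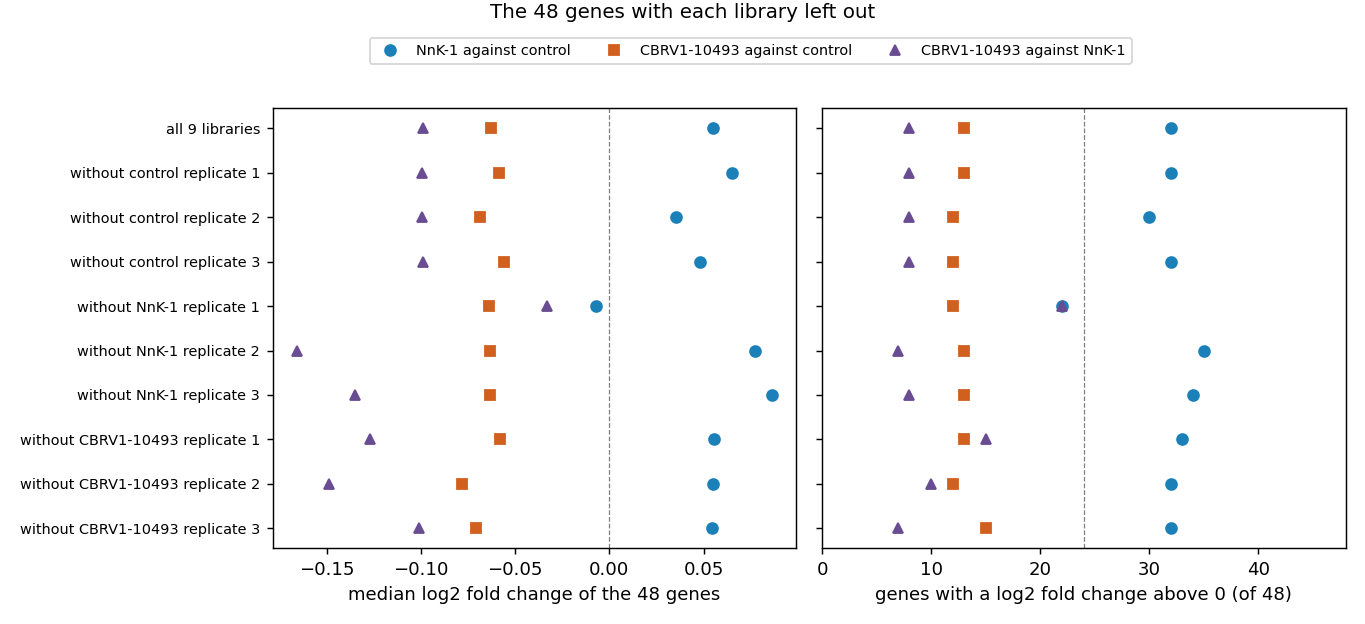
The left panel gives the median log2 fold change of the 48 genes, and the right panel how many of the 48 had a log2 fold change above 0, for each comparison with all 9 libraries and with each library left out. The dashed lines mark 0 and an even split. NnK-1 against control drops from 32 genes above 0 to 22 without NnK-1 replicate 1, while CBRV1-10493 against control keeps between 12 and 15.

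Among the genes of mitotic entry, CKS1B, a small CDK-binding subunit that also helps degrade the inhibitor p27, separated the groups most clearly. CKS1B stood at 109, 108 and 117 CPM in control cells, 127, 137 and 129 with NnK-1, and 105, 103 and 106 with CBRV1-10493. Every NnK-1 library lay above every control, and every CBRV1-10493 library just below. The log2 fold change of CKS1B was 0.26 for NnK-1 (95% interval 0.05 to 0.46, adjusted p = 0.62 by edgeR), which is 19.6% higher. It was -0.07 for CBRV1-10493 (interval -0.28 to 0.14, adjusted p = 1) and -0.03 without control replicate 3, and on TMM-scaled CPM the CBRV1-10493 and control libraries of CKS1B overlapped. Between the peptides CKS1B differed by -0.33 (interval -0.53 to -0.12, adjusted p = 0.994 by edgeR), and leaving out any 1 library kept this difference between -0.36 and -0.28. The annotation names 6 CKS1B pseudogenes, none counted under its own symbol, so some CKS1B reads may stem from such copies or have been lost to them. The same limit holds for UBE2C (4 such pseudogenes) and for AURKA and NEK2 (2 each). It also holds for CCNB2, BUB1, BUB3, CDC20, DLGAP5 and MKI67 (1 each). Only pseudogenes named by the member's symbol, P and a number were sought. Copies under other names were not counted, for these or for the other members.

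CDC25B, the phosphatase that starts CDK1 activation, had 134, 139 and 143 CPM in control cells, 155, 162 and 162 with NnK-1, and 143, 141 and 138 with CBRV1-10493. Its NnK-1 libraries lay above the other 6 and its CBRV1-10493 libraries within the range of the controls. The log2 fold change of CDC25B was 0.23 for NnK-1 (interval 0.04 to 0.42, adjusted p = 0.62), 0.03 for CBRV1-10493 (interval -0.16 to 0.23, adjusted p = 1) and -0.20 between the peptides (interval -0.39 to -0.01, adjusted p = 0.994). Its highest value was in NnK-1 replicate 2, not in replicate 1. Without NnK-1 replicate 1 its difference for NnK-1 was 0.26.

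CCNB1, which encodes cyclin B1, had 146, 141 and 142 CPM in control cells, 182, 141 and 156 with NnK-1, and 140, 131 and 120.005 with CBRV1-10493. The controls were tight (SD 1.74% of the mean) and the NnK-1 libraries spread widely, with replicate 2 among the controls before TMM scaling. On TMM-scaled CPM every NnK-1 library of CCNB1 lay above every control. CCNB1 differed by -0.30 between the peptides (interval -0.52 to -0.09, adjusted p = 0.994), by 0.18 for NnK-1 (interval -0.03 to 0.40, adjusted p = 0.72) and by -0.12 for CBRV1-10493 (interval -0.34 to 0.10, adjusted p = 1), the last being -0.06 without CBRV1-10493 replicate 3. Without NnK-1 replicate 1 the difference of CCNB1 between the peptides was -0.21 (adjusted p = 0.563). CCNB2, the second B-type cyclin, had 130, 134 and 147 CPM in control cells, 169, 148 and 140 with NnK-1, and 146, 127 and 111 with CBRV1-10493. All groups of CCNB2 overlapped, and its difference between the peptides was -0.26 (interval -0.49 to -0.02, adjusted p = 0.994), which became -0.19 (adjusted p = 0.666) without NnK-1 replicate 1 and -0.16 without CBRV1-10493 replicate 3.

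CDK1 itself gave no such pattern. CDK1 had 156, 153 and 150 CPM in control cells, 162, 109 and 133 with NnK-1, and 152, 151 and 149 with CBRV1-10493. Control and CBRV1-10493 libraries were nearly alike, and NnK-1 held both the highest and the lowest value. Its log2 fold change was -0.16 for NnK-1 (interval -0.39 to 0.07, adjusted p = 0.788) and -0.01 for CBRV1-10493 (interval -0.24 to 0.23). As a role, the 9 genes of mitotic entry summed to 838, 842 and 859 CPM in control cells, 1006, 849 and 882 with NnK-1, and 824, 813 and 783 with CBRV1-10493. Of these 9, 7 lay above 0 for NnK-1 and 8 below 0 for CBRV1-10493.

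Among the mitotic kinases, PLK1, which drives centrosome maturation and mitotic entry, had 85.4, 90.0 and 85.8 CPM in control cells, 91.0, 88.3 and 80.4 with NnK-1, and 76.1, 77.1 and 71.3 with CBRV1-10493. The 3 CBRV1-10493 libraries were the lowest of the 9. PLK1 differed by -0.20 from control (interval -0.42 to 0.01, adjusted p = 1) and by -0.22 from NnK-1 (interval -0.44 to -0.00, adjusted p = 0.994), while NnK-1 differed from control by 0.02 (interval -0.20 to 0.23, adjusted p = 0.985). PLK1 shares its 3′ end with ERN2, as given above. AURKA, the kinase that activates PLK1, had 147, 152 and 129 CPM in control cells, 159, 145 and 170 with NnK-1, and 145, 132 and 148 with CBRV1-10493. The AURKA groups overlapped before TMM scaling, with log2 fold changes of 0.17 for NnK-1 (interval -0.04 to 0.38, adjusted p = 0.726) and 0.01 for CBRV1-10493 (interval -0.20 to 0.22, adjusted p = 1). On TMM-scaled CPM every AURKA value with CBRV1-10493 lay below every value with NnK-1. The peptides differed at AURKA by -0.17 (interval -0.38 to 0.04, adjusted p = 0.994). NEK2, a kinase of centrosome separation, ranged from 12.2 to 23.4 CPM with no order by group.

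All 8 genes of the spindle checkpoint and anaphase-promoting complex lay below 0 for CBRV1-10493, with a median log2 fold change of -0.14 and a range of -0.26 to -0.05. For NnK-1 they split 4 to 4. Their sum was 804, 816 and 855 CPM in control cells, 872, 846 and 802 with NnK-1, and 738, 772 and 729 with CBRV1-10493. The CBRV1-10493 sums were the 3 lowest of the 9.

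PTTG1, securin, which restrains separase until anaphase, had 194, 176 and 202 CPM in control cells, 183, 164 and 179 with NnK-1, and 159, 162 and 158 with CBRV1-10493. Every CBRV1-10493 library was below every other library. PTTG1 differed from control by -0.24 (interval -0.43 to -0.04, adjusted p = 1 by edgeR), which is the smallest p of any member in that comparison. It differed from NnK-1 by -0.14 (interval -0.34 to 0.05, adjusted p = 0.994). Leaving out any 1 library kept the difference of PTTG1 from control between -0.30 and -0.19.

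BUB3, a checkpoint scaffold, had 277, 313 and 323 CPM in control cells, 310, 388 and 336 with NnK-1, and 297, 286 and 288 with CBRV1-10493. Here NnK-1 replicate 2, not replicate 1, held the highest value. BUB3 differed between the peptides by -0.26 (interval -0.47 to -0.05, adjusted p = 0.994) and for NnK-1 by 0.21 (interval -0.01 to 0.42, adjusted p = 0.684). When NnK-1 replicate 2 was left out, these were -0.15 and 0.10. UBE2C, the ubiquitin-conjugating enzyme of the anaphase-promoting complex, had 119, 122 and 128 CPM in control cells, 150, 115 and 99.1 with NnK-1, and 108, 119 and 103 with CBRV1-10493. The highest CBRV1-10493 value of UBE2C, 119.3 CPM, was next to the lowest control value, 119.4 CPM, and the groups overlapped on TMM-scaled CPM. MAD2L1, the checkpoint inhibitor MAD2, had 43.2, 44.3 and 45.7 CPM in control cells, 55.7, 47.0 and 41.0 with NnK-1, and 42.6, 40.5 and 37.3 with CBRV1-10493. Its groups also touched on TMM-scaled CPM, and its log2 fold change was -0.13 for CBRV1-10493 (interval -0.41 to 0.15, adjusted p = 1), or -0.08 without CBRV1-10493 replicate 3.

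All 7 kinesins likewise lay below 0 for CBRV1-10493, with a median of -0.15, while for NnK-1 there were 3 above and 4 below. The kinesins summed to 545, 526 and 539 CPM in control cells, 588, 474 and 495 with NnK-1, and 483, 475 and 497 with CBRV1-10493. KIF11, the motor that pushes spindle poles apart, had 52.6, 50.4 and 50.8 CPM in control cells, 48.1, 43.7 and 38.0 with NnK-1, and 36.1, 46.2 and 42.7 with CBRV1-10493. It was below every control in all 6 treated libraries. The log2 fold change of KIF11 was -0.29 for CBRV1-10493 (interval -0.56 to -0.01, adjusted p = 1) and -0.22 for NnK-1 (interval -0.49 to 0.06, adjusted p = 0.736). The NnK-1 value of KIF11 was -0.13 without NnK-1 replicate 3, and both values are measured against the same 3 controls.

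KIF20B, a kinesin of late mitosis, lay below every control in the 3 NnK-1 libraries. KIF20B had 150.1, 151 and 143 CPM in control cells, 132, 114 and 132 with NnK-1, and 127, 125 and 144 with CBRV1-10493. Its log2 fold change was -0.20 for NnK-1 (interval -0.41 to 0.00, adjusted p = 0.678) and -0.15 for CBRV1-10493 (interval -0.35 to 0.06, adjusted p = 1), with 1 CBRV1-10493 library inside the control range. KIF2C, which depolymerises microtubules at kinetochores, had 77.8, 71.2 and 86.1 CPM in control cells, 96.9, 76.8 and 85.2 with NnK-1, and 73.1, 59.3 and 68.9 with CBRV1-10493. The lowest NnK-1 value of KIF2C lay above the highest CBRV1-10493 value, with the controls reaching into both groups.

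The peptides differed at KIF2C by -0.37 (interval -0.63 to -0.12, adjusted p = 0.994 by edgeR), and by -0.30 (adjusted p = 0.523) without NnK-1 replicate 1. KIF4A, a chromosome-arm kinesin, had 93.6, 94.6 and 91.3 CPM in control cells, 111, 101 and 105 with NnK-1, and 94.95, 98.1 and 79.6 with CBRV1-10493. Its NnK-1 libraries were the 3 highest of the 9. The log2 fold change of KIF4A was 0.21 for NnK-1 (interval -0.01 to 0.43, adjusted p = 0.695), and the peptides differed by -0.23 (interval -0.45 to -0.01, adjusted p = 0.994), or by -0.14 without CBRV1-10493 replicate 3.

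**Figure D4:**
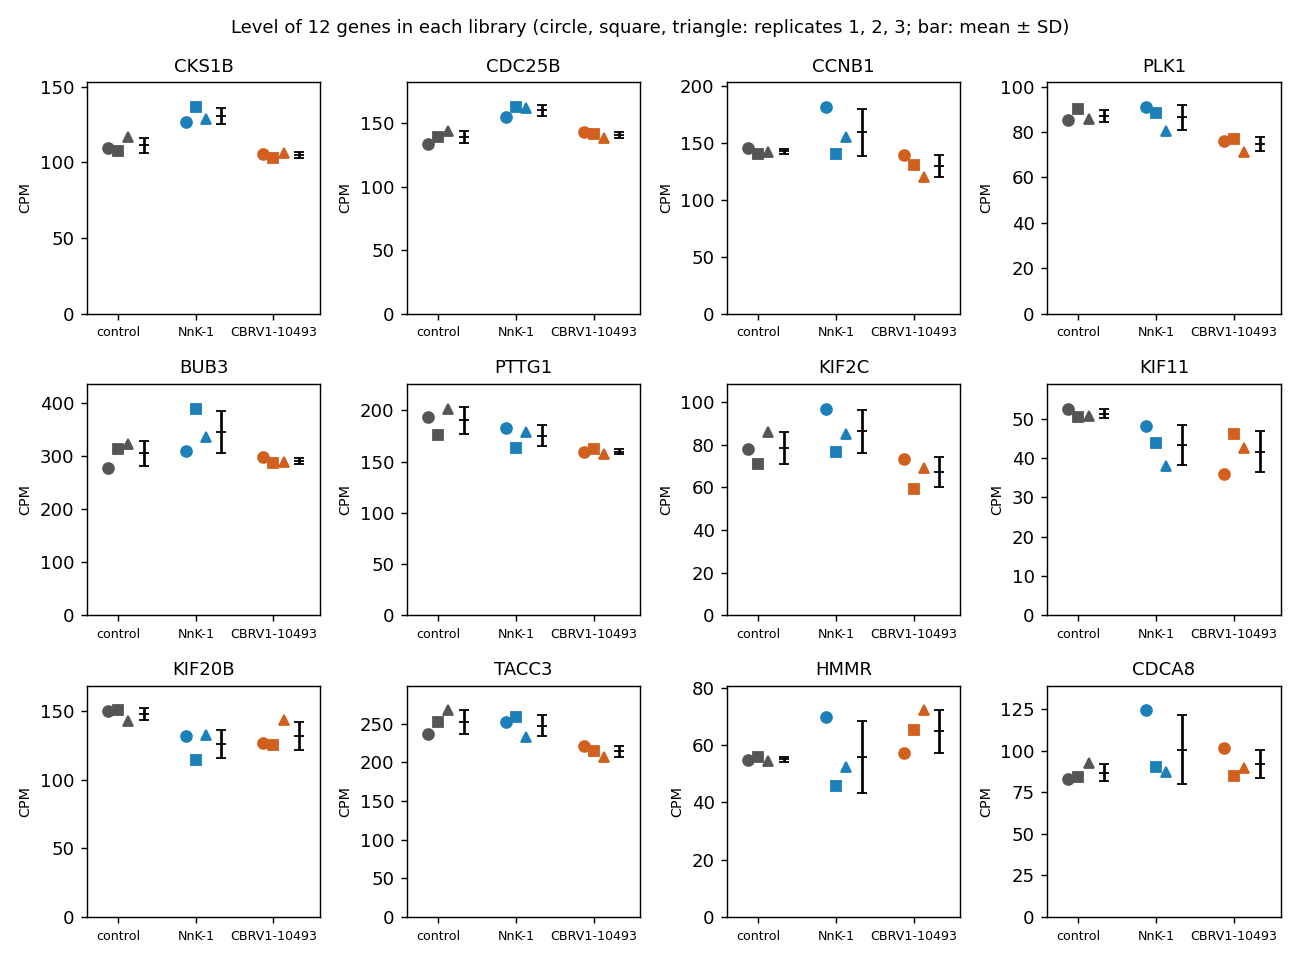
Each panel shows 1 gene, with its level in CPM (axis from 0) in the 3 control, 3 NnK-1 and 3 CBRV1-10493 libraries. Symbols mark replicates 1, 2 and 3, and the black bar is the group mean ± SD. CKS1B and CDC25B are highest in the 3 NnK-1 libraries, PLK1, PTTG1 and TACC3 lowest in the 3 CBRV1-10493 libraries, and CDCA8 and HMMR have an NnK-1 library far from the other 2.

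The kinetochore and centromere genes showed no common direction with either peptide. CENPF, a kinetochore protein that builds up in G2, had 488, 487 and 443 CPM in control cells, 473, 424 and 465 with NnK-1, and 416, 443 and 460.0 with CBRV1-10493. Its groups overlapped, with log2 fold changes of -0.03 (interval -0.21 to 0.14, adjusted p = 0.963) and -0.09 (interval -0.27 to 0.08, adjusted p = 1). CENPA, the centromeric histone, was the most variable member: it ranged from 13.8 to 36.7 CPM, both within NnK-1, and its SD was 35.6% of its mean over the 9 libraries, where counting alone gives 5.89%. The other members varied by 5.42% (TPX2) to 19.1% (CCNA2). The interval of CENPA for NnK-1 accordingly ran from -0.44 to 0.77, so that a difference of the size seen at CKS1B, in either direction, lies within it.

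In the chromosomal passenger complex, which corrects attachments at the centromere, BIRC5 (survivin) had 256, 249 and 252 CPM in control cells, 264, 241 and 248 with NnK-1, and 256, 249 and 212 with CBRV1-10493. The BIRC5 groups overlapped, with CBRV1-10493 replicate 3 the lowest library. CDCA8, described above for NnK-1 replicate 1, had 83.1, 84.5 and 92.9 CPM in control cells, 124, 90.5 and 87.2 with NnK-1, and 102, 85.1 and 89.7 with CBRV1-10493. Its log2 fold change for NnK-1 was 0.24 (interval -0.03 to 0.50, adjusted p = 0.708) with all libraries and 0.07 (adjusted p = 0.872) without NnK-1 replicate 1.

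Among the spindle-associated proteins, TACC3, which stabilises kinetochore fibres, had 236, 253 and 268 CPM in control cells, 252, 258 and 232 with NnK-1, and 221, 215 and 206 with CBRV1-10493. The CBRV1-10493 libraries were the 3 lowest of the 9. TACC3 differed by -0.22 both from control (interval -0.41 to -0.03, adjusted p = 1) and from NnK-1 (interval -0.41 to -0.03, adjusted p = 0.994), and NnK-1 differed from control by 0.00 (interval -0.19 to 0.19). HMMR, a hyaluronan receptor that also binds the spindle, lay on the other side of the controls. HMMR had 54.7, 56.0 and 54.4 CPM in control cells, 69.9, 45.6 and 52.5 with NnK-1, and 57.2, 65.4 and 72.2 with CBRV1-10493. All 3 CBRV1-10493 libraries lay above the controls, the only member of the 48 of which this was so.

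The log2 fold change of HMMR for CBRV1-10493 was 0.25 (interval -0.04 to 0.54, adjusted p = 1), between 0.17 and 0.33 with any 1 library left out. HMMR shares its 3′ end with the antisense gene HMMR-AS1, as given above. TPX2, which activates AURKA on the spindle, had 179, 182 and 197 CPM in control cells, 195, 210.1 and 192 with NnK-1, and 183, 190.0 and 179 with CBRV1-10493. TPX2 separated the peptides, by -0.13 (interval -0.32 to 0.07, adjusted p = 0.994) or -0.07 without NnK-1 replicate 2, and its groups overlapped for either peptide against control.

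In cytokinesis, ECT2, the exchange factor that switches on RhoA at the furrow, had 77.8, 79.6 and 76.9 CPM in control cells, 87.9, 87.6 and 81.6 with NnK-1, and 77.8, 80.2 and 74.1 with CBRV1-10493. The NnK-1 libraries were the 3 highest of the 9. The log2 fold change of ECT2 was 0.16 for NnK-1 (interval -0.05 to 0.38, adjusted p = 0.761) and 0.00 for CBRV1-10493 (interval -0.21 to 0.22, adjusted p = 1). That of ANLN was 0.00 for NnK-1, with an interval of -0.32 to 0.32.

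TOP2A, the topoisomerase that untangles sister chromatids, had 1785, 1833 and 1907 CPM in control cells, 1752, 1875 and 2057 with NnK-1, and 1727, 1750 and 1893 with CBRV1-10493. Its groups overlapped, and in contrast to many members it was not high in NnK-1 replicate 1. TOP2A differed by 0.07 for NnK-1 (interval -0.10 to 0.24, adjusted p = 0.895) and by -0.03 for CBRV1-10493 (interval -0.20 to 0.14, adjusted p = 1). MKI67, the Ki-67 antigen used to count cycling cells, ranged from 273 to 294 CPM in control cells, from 254 to 278 with NnK-1 and from 257 to 293 with CBRV1-10493. The groups of MKI67 overlapped, with log2 fold changes of -0.08 (interval -0.26 to 0.10, adjusted p = 0.881) and -0.04 (interval -0.22 to 0.15, adjusted p = 1). FOXM1, the transcription factor of this programme, ranged from 49.4 to 56.4 CPM in control cells, from 49.5 to 63.2 with NnK-1 and from 47.8 to 50.4 with CBRV1-10493, with log2 fold changes of 0.15 (interval -0.11 to 0.42, adjusted p = 0.826) and -0.07 (interval -0.33 to 0.20, adjusted p = 1).

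A wider list of 118 further mitosis genes, all tested, was set beside the members. Of these, 59 lay above 0 and 59 below for NnK-1 (median 0.00), 53 above and 65 below for CBRV1-10493 (median -0.02), and 49 above and 69 below between the peptides (median -0.03). None passed the adjusted p by edgeR's quasi-likelihood test. At an unadjusted p under 0.05 there were 7 higher and 5 lower for NnK-1, 0 and 3 for CBRV1-10493, and 0 and 5 between the peptides. The shares over all genes were 3.76% and 3.57% for NnK-1, 1.34% and 1.55% for CBRV1-10493, and 1.96% and 2.35% between the peptides. NnK-1 replicate 1 was the highest library for 37 of the 115 that averaged 5 CPM or more (32.2%), and NnK-1 replicate 2 the lowest for 40 (34.8%), as among the members. The 118 together took 7176 to 7472 CPM in control cells, 6843 to 7794 with NnK-1 and 6990 to 7163 with CBRV1-10493. Their CBRV1-10493 sums thus lay below every control but not below every NnK-1 library. The smallest p for NnK-1 belonged to DSN1, a kinetochore subunit (0.35, adjusted p = 0.577), for CBRV1-10493 to KIFC1, a minus-end kinesin (-0.48, adjusted p = 1), and between the peptides to FAM64A (-0.41, adjusted p = 0.994).

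The 60 S phase genes had 38 above 0 and 22 below for NnK-1 (median 0.06) and 26 above and 34 below for CBRV1-10493 (median -0.03), with CLSPN, a replication checkpoint adaptor, at -0.31 for NnK-1 (adjusted p = 0.62 by edgeR) and -0.32 for CBRV1-10493 (adjusted p = 1) against the same controls. S phase sums ran from 3949 to 4130 CPM in control cells, 3992 to 4222 with NnK-1 and 3867 to 3988 with CBRV1-10493. The control and CBRV1-10493 sums overlapped. Of 24 G1 regulators 20 were tested, with a median of 0.03 for NnK-1 and -0.05 for CBRV1-10493. The smallest p among them was that of CDK6, a kinase of G1 entry, at -0.29 for NnK-1 (adjusted p = 0.577 by edgeR). CDKN2B and CDKN2C had no read and CDKN2A 1 read over all 9 libraries.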

How the data were processed

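The 9 libraries were made from 500 ng of total RNA with Lexogen's QuantSeq kit, per the labels' protocols. The submitters' processing notes name Bowtie2, bedtools and hg19; their versions, the annotation and the counting options are not given in the sources used here. Deposited files hold raw counts per gene symbol, made by the authors without normalization, in 25737 entries. Entries of the same symbol were summed (286 symbols, 1561 entries). The edgeR default filter (minimum count 10, minimum total 15) kept 13676 genes, fitted with TMM and the quasi-likelihood model of edgeR 4.0.16 (R 4.3.3) over all 9 libraries with a coefficient per group, two-sided, with Benjamini-Hochberg adjustment over all genes and a threshold of 0.05. The script was tested on simulated data. The common biological coefficient of variation was 0.169. Every library pair differed beyond sampling noise. The members' deviations from their means used log2 CPM with nothing added, as every member had reads in every library.

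The members and lists were chosen with earlier results of these data known. Values in every library are given for the 6 members with the smallest p in each comparison, for those whose groups did not overlap, and for the member with the highest mean in each role; other members were named after their values were seen. Beside DESeq2 1.42.0, the alternatives were other scalings and filters, only the libraries compared, a replicate block and each library left out. From depth alone, the counting error at a member's mean count over the 9 libraries was 0.66% to 6.89%. At the lowest count in a single library, the 155 reads of CENPA in NnK-1 replicate 2, it was 8.03%.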

Additional observations from a re-analysis of the deposited data

Results flagged for a closer look

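CKS1B stood out because every NnK-1 library lay above all 3 controls and every CBRV1-10493 library below all 3. The difference between the peptides was -0.328 on the log2 scale. That difference was tested and did not pass over all genes (adjusted p = 0.994 by edgeR's quasi-likelihood test). On TMM-scaled CPM the CBRV1-10493 libraries overlapped the controls, while the NnK-1 libraries stayed above them.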

How the results depend on the processing

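No member passed the adjusted threshold under any alternative run. The members' median log2 fold change for CBRV1-10493 against control stayed below 0, between -0.078 and -0.0559 with each library left out in turn. That for NnK-1 against control ran from -0.00707 to 0.0866, the lowest without NnK-1 replicate 1, and that between the peptides from -0.166 to -0.0333. For the wider mitosis list the lowest value for NnK-1 was -0.087 and the highest 0.0368, and between the peptides -0.0632 and 0.0241. In alternatives chosen after seeing the data, leaving out NnK-1 replicate 2 and CBRV1-10493 replicate 1 gave -0.158 between the peptides, and leaving out NnK-1 replicates 1 and 2 gave -0.00944 for the members and -0.0601 for the wider list in NnK-1 against control, and 0.0228 for the wider list between the peptides. The lone NnK-1 library left there is assumed to vary like the other groups.

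With the replicate number as a replicate block the members' medians were 0.0509, -0.0594 and -0.0905, with 0 members called. Same-number libraries correlated over genes at -0.0566 to 0.132 in their deviations, above 0.1 only for control replicate 1 with NnK-1 replicate 1. Those of different number and group correlated at -0.0933 to 0.0975, and not every library correlated best with its own number. Whether libraries of the same number share a culture or a batch is not recorded here, and correlations this weak cannot settle it. Differences within about 0.255 on the log2 scale lie inside the median interval of a member.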
